A study of Mus spretus with 12 samples.

Results

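The genes described here encode the nuclear-made subunits of oxidative phosphorylation, together with a small number of factors that share their names. They were chosen by symbol alone: every probe on the array that was not a control and whose gene name began with Nduf, Uqcr, Cox4, Cox5, Cox6, Cox7, Cox8 or Atp5, or was Sdha, Sdhb, Sdhc or Sdhd. This gave 92 genes with 143 probes, out of 37074 gene names on the array. Of the 92 genes, 90 were bright enough to be tested among 18678 genes, and Cox7b2 and Cox8c stayed near background on all 12 arrays. By complex, 38 genes belonged to complex I, 7 to its assembly factors, 4 to complex II, 8 to complex III, 17 to complex IV (15 tested) and 18 to complex V. The name rule also took in Atp5s, Atp5sl and the pseudogene Atp5c1-ps, and it left out cytochrome c1, whose symbol does not begin with Uqcr.

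Liver RNA came from male Mus spretus of the inbred strain SPRET/EiJ, aged 22 months by the labels, and the 60 days of feeding began at 20 months. PXDDE mice were fed p,p'-DDE, a lasting metabolite of DDT, at 450 mg/kg of feed in corn oil and drank water with must of the Pedro Ximenez grape (85 mg/L of polyphenols and 31 g/L of glucose and fructose). DDE mice were fed p,p'-DDE at the same 450 mg/kg and had no must. Control mice ate the same base diet, Teklad, with the corn oil that carried the DDE in the other groups. Each group had 4 arrays. There was no group with must alone, so the must comparison is PXDDE against DDE, and must, its sugar and its polyphenols cannot be told apart.

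Oxidative phosphorylation couples the oxidation of NADH and succinate to ATP synthesis across the inner mitochondrial membrane. Complexes I, III and IV pump protons as electrons move to oxygen, complex II feeds in electrons from succinate and is also an enzyme of the citric acid cycle, and complex V, ATP synthase, lets protons back to make ATP. Complexes I, III, IV and V join subunits made from nuclear genes, most of which are small and non-catalytic, to a few made from mitochondrial DNA, and some complex IV subunits exist in a form for most tissues and another for heart and skeletal muscle.

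Levels were read with 60-base probes whose positions are given on the mouse build mm9. Stretches of 30 bases are shown for the probes on which the main findings rest, 5′ to 3′ as printed on the array. Sdha and Ndufa10 were among the genes that were higher in treated livers. The weakest Sdha probe, described below, was called lower. For each of these genes the 2 brightest probes are shown, which moved the same way. Capitals mark the longest run that the pair has in common, which was 5 bases in both cases. The Sdha probes lay on the minus strand at chr13:74460310-74460369 and chr13:74465756-74465815, and the Ndufa10 probes on the minus strand at chr1:94348635-94348694 and, over an interval longer than the probe, chr1:94361039-94363996.
Sdha, brightest probe: ttgtctctttatTCTTGtgcagtgataaaa
Sdha, next brightest probe: tgaaTCTTGacaagttgagatttgccgatg
Ndufa10, brightest probe: gctgaattacacGACCAttccggtctacct
Ndufa10, next brightest probe: gaaagcagtgtgtgGACCActataatgaaa

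For complex IV, the muscle form of 3 subunits is set beside the form of most tissues, because the muscle forms had the largest changes of any members in both comparisons with control. Capitals again mark the longest run shared within a pair, which was 4 bases for Cox6a2 with Cox6a1, 4 bases for Cox7a1 with Cox7a2 and 6 bases for Cox8b with Cox8a, so that no pair had a long run in common. The muscle-form probes lay at chr7:135349160-135349219 on the minus strand (Cox6a2), within chr7:30970337-30970948 on the plus strand (Cox7a1) and at chr7:148084852-148084911 on the minus strand (Cox8b). Those of the common forms lay on the minus strand, at chr5:115795726-115795785 (Cox6a1), chr9:79603048-79603072 (Cox7a2, an interval shorter than the probe) and chr19:7289652-7289708 (Cox8a).
Cox6a2: agcaatcttcaaaTTGGccttctgcacacc
Cox6a1: ccacgaaaaccctTTGGatgctaagctcgt
Cox7a1: acaACGTcctgtacagactgaccatgacgc
Cox7a2: atcccagctcttcACGTggttcagtttcat
Cox8b: cacatccctgagagatttcaTTAAACatgt
Cox8a: gtaacaataaagtctatTTAAACcttgaaa

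Among the 90 tested members, the brightest probe, whose values are used below, shared a run of at least 16 bases with a probe named for another gene in 13, and in 1 of these, Ndufb11, the run reached 30 bases. Over all probes above background the same held for 18 members, and a second probe of Uqcr10 shared 60 bases with one of 4930481A15Rik. The Ndufb11 probe (chrX:20192452-20192509, minus strand) and the probe of Gm6444 (chr5:123516746-123516805, plus strand) shared 58 bases, marked in capitals below as far as they fall in the stretch shown, which is the start of the Ndufb11 probe and the end of the Gm6444 probe. Values of Ndufb11 are therefore those of a sequence with a near-identical copy. The exon, intron or UTR at these positions is not stated, since no annotation was used here.
Ndufb11: tcCGCTGCTTGTTATTTACCTGGTTCCTCA
Gm6444: ACACCTTATTAAAGGAATTGAAAGTAAAaa

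Every value below is a log2 signal of 1 probe relative to the 75th percentile of its array, or a difference of such values between groups, and calls were made at an adjusted p below 0.05 (limma, Benjamini-Hochberg adjustment over 18678 genes). Since the labels do not say that each array held a different mouse, the p-values measure the spread between these arrays. On the linear scale the 75th percentile averaged 702.2 ± 7.63 in PXDDE, 610.8 ± 46.9 in DDE and 535.1 ± 32.2 in control (SD, n = 4 arrays each), and no spot was saturated. The 12 arrays were spread over 5 slides, each with arrays of at least 2 groups. Hepatocyte markers were present in all groups, with a summed linear level over 8 genes of 3010 to 3160 in PXDDE, 3390 to 3480 in DDE and 3700 to 4030 in control, so that the labelled tissue was seen in every array. Markers of other tissues also moved: the sum over 8 pancreatic acinar genes was 1470 to 1530 in PXDDE, 236 to 267 in DDE and 318 to 340 in control, and that over 7 adrenal cortex genes was 43.9 to 48.6 in PXDDE, 2.35 to 2.53 in DDE and 25.7 to 27.8 in control. None of the 4 kidney markers was well above background on all arrays of a group. All 5 Kupffer cell markers were lower in DDE against control and 4 in PXDDE against DDE, with sums of 23.9 to 28 in PXDDE, 32.5 to 35.6 in DDE and 41 to 46.1 in control. Under all 6 scalings compared below, 1 of the 5 was lower in DDE against control and 3 in PXDDE against DDE. Of 4 T and NK cell markers tested, 3 were lower in DDE against control and 3 in PXDDE against DDE, with sums of 1.78 to 2.09 in PXDDE, 2.17 to 2.48 in DDE and 3.25 to 3.53 in control. B cell markers were lower in 3 of 3 tested in DDE against control and in 1 in PXDDE against DDE, and their sums were 0.741 to 0.797 in PXDDE, 0.781 to 0.905 in DDE and 1.57 to 1.89 in control. The T and NK cell calls held under all 6 scalings, as did the B cell calls in DDE against control but not in PXDDE against DDE. Among all genes 26.3% and 29.7% were called lower in these comparisons. The part of other cell types in the results for oxidative phosphorylation was not tested, and in bulk liver fewer cells of a type and less RNA per cell cannot be told apart.

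In DDE against control, 4 of the 90 members were called higher and 51 lower, where 24% and 26.3% of all tested genes were called higher and lower (50.3% in either direction). The members' median change was -0.212, against -0.0239 for all genes. In PXDDE against DDE, 4 members were higher and 60 lower, with 20.2% and 29.7% of all genes called in those directions (49.9% in either) and medians of -0.247 for the members and -0.0402 for all genes. PXDDE against control, which shares arrays with both, gave 10 higher and 71 lower (31.6% and 39.3% of all genes, 70.9% in either direction) and a median of -0.48, against -0.0577. Most of these changes were small. Only 5 members were called and at least 1.5-fold lower in DDE against control (8.48% of all genes) and 2 in PXDDE against DDE (8.18%), compared with 35 in PXDDE against control (21.6%), where 1 member was called and at least 1.5-fold higher (9.82%). No member was called and at least 1.5-fold higher in DDE against control (3.33% of all genes) or in PXDDE against DDE (2.92%).

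How far the members as a whole were lower depended on how the arrays were scaled. Median centring moved the median of all genes to 0.207 in DDE against control, 0.103 in PXDDE against DDE and 0.317 in PXDDE against control, and the members' medians to 0.0188, -0.104 and -0.106. Relative to all genes the members' median was lower under each of 6 scalings, by -0.188 to -0.109 in DDE against control, by -0.207 to -0.0377 in PXDDE against DDE and by -0.423 to -0.144 in PXDDE against control. Other genes of like signal moved too. The 1808 genes at or above the members' lower quartile of signal (a log2 level of 4.99), 67 members included, had medians of -0.0587, -0.195 and -0.231 in the same order, with 35%, 53.7% and 55.3% called lower, so that in PXDDE against DDE the members' median of -0.247 lay close to that of genes of like signal.

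Members called in the same direction under all 6 scalings were counted separately, a rule added after seeing the data. These were, in DDE against control, 4 higher and 13 lower members, where 18.6% and 10.5% of all genes met the same rule. For PXDDE against DDE they were 4 higher and 17 lower (17.3% and 15.7% of all genes), and in PXDDE against control 8 higher and 35 lower (27.2% and 19.6%). As shares of the 90 members, 14.4%, 18.9% and 38.9% were lower and 4.44%, 4.44% and 8.89% were higher under all 6 scalings. The share of members that were higher was thus below the background in each comparison, while the share that was lower was near the background in DDE against control and in PXDDE against DDE and stood above it in PXDDE against control, at 38.9% beside 19.6%. Groups did not overlap, in the same terms, for 4 higher and 49 lower members in DDE against control (22.3% and 24.1% of all genes), for 4 and 60 in PXDDE against DDE (18.3% and 26.4%) and for 9 and 69 in PXDDE against control (28.9% and 36.3%).

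**Figure D1:**
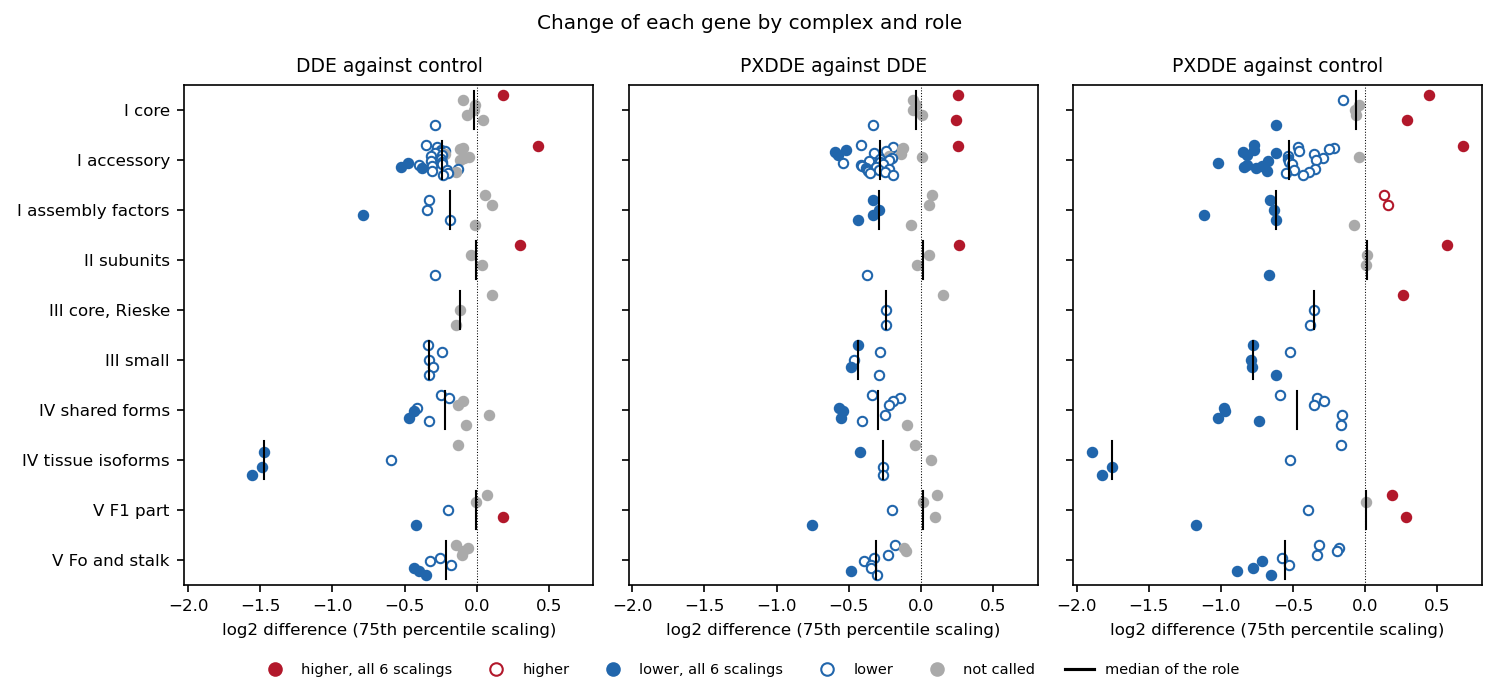
Log2 difference of each member (75th percentile scaling) by complex and role in the 3 comparisons, with filled coloured points for calls that held under all 6 scalings, open points for other calls, grey for genes not called and a bar at the median of each role. Ndufa4l2, Atp5s, Atp5sl and Atp5c1-ps are not shown. Filled points to the right of 0 include Sdha, Ndufs1 and Ndufa10, and the Cox6a2, Cox7a1 and Cox8b points stand far to the left in both comparisons with control.

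Complex I takes electrons from NADH, and its 7 nuclear core subunits carry the flavin, the iron-sulphur clusters and the quinone site. Of these, Ndufs1 was higher and Ndufv2 lower in DDE against control, and in PXDDE against DDE Ndufs1 and Ndufv1 were higher and Ndufv2 lower. The core medians were -0.0214 in DDE against control, -0.0355 in PXDDE against DDE and -0.0632 in PXDDE against control. Relative to all genes they ran over the 6 scalings between 0.00251 and 0.107, between 0.00471 and 0.304, and between -0.00552 and 0.355.

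Ndufs1, the large iron-sulphur subunit of the NADH-oxidising arm, had levels of 5.18, 5.21, 5.15 and 5.29 on the PXDDE arrays, 4.87, 4.94, 4.99 and 4.997 on the DDE arrays and 4.81, 4.75, 4.70 and 4.80 on the control arrays. The groups formed 3 steps without overlap, with PXDDE highest. Its log2 difference was 0.18 ± 0.0475 in DDE against control (SE, adjusted p = 0.0075) and 0.26 ± 0.0475 in PXDDE against DDE (adjusted p = 0.000945). Ndufv1, which binds NADH and the flavin, had levels of 6.86, 6.89, 6.78 and 6.98 in PXDDE, 6.64, 6.64, 6.59 and 6.66 in DDE and 6.61, 6.59, 6.61 and 6.55 in control. Only the PXDDE arrays stood apart: the difference was 0.24 ± 0.0453 in PXDDE against DDE (adjusted p = 0.000985), and in DDE against control it was 0.04 ± 0.0453 (adjusted p = 0.438). A second Ndufv1 probe disagreed there, with 0.32 (adjusted p = 0.0034 in the fit over probes). Ndufv2, the partner of Ndufv1 that carries a further iron-sulphur cluster, went the other way, with means of 5.76 in PXDDE, 6.09 in DDE and 6.38 in control and differences of -0.29 ± 0.0479 and -0.33 ± 0.0479 (adjusted p = 0.00044 and 0.000177). For Ndufv2 the fall held under all 6 scalings only in PXDDE against control (-0.62 ± 0.0479, adjusted p = 3.92e-07). For Ndufs3, Ndufs7 and Ndufs8 no difference passed the threshold in DDE against control or in PXDDE against DDE.

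Accessory subunits surround this core and are needed for its assembly and stability. Among 30 of them, 1 was higher and 22 were lower in DDE against control, 1 was higher and 24 were lower in PXDDE against DDE, and 1 was higher and 28 were lower in PXDDE against control. Among all genes 24%, 20.2% and 31.6% were higher, and 26.3%, 29.7% and 39.3% lower. Of the genes of like signal, 35%, 53.7% and 55.3% were lower. The shares of all genes also apply to the counts of the other roles below. Those of genes of like signal do not apply to the complex I assembly factors or the complex IV tissue isoforms. The signal of these roles lay below the log2 level of 4.99 from which genes of like signal were taken. The accessory medians were -0.242, -0.286 and -0.531, and they were below those of all genes under each of the 6 scalings in each comparison. The higher one was Ndufa10, a subunit of the matrix side related to nucleoside kinases. Its levels were 5.03, 5.04, 4.96 and 5.08 in PXDDE, 4.90, 4.74, 4.74 and 4.73 in DDE and 4.36, 4.38, 4.32 and 4.36 in control. No array of a group reached those of another, and 1 DDE array was above the others. The difference was 0.43 ± 0.0477 in DDE against control (adjusted p = 2.63e-05), 0.25 ± 0.0477 in PXDDE against DDE (adjusted p = 0.00105) and 0.68 ± 0.0477 in PXDDE against control (adjusted p = 1.82e-07), or 1.60-fold. The next brightest probe of Ndufa10 gave 0.45, 0.31 and 0.77.

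Among the lower accessory subunits, Ndufb4, a small membrane subunit, had levels of 6.14, 5.96, 5.98 and 6.04 in PXDDE, 6.42, 6.59, 6.65 and 6.61 in DDE and 7.18, 7.13, 6.98 and 6.90 in control. The groups again formed 3 steps, here with control highest, and the fall was 2.03-fold in PXDDE against control (log2 -1.02 ± 0.0737, adjusted p = 2.34e-07). Ndufb8, a membrane subunit widely used as a marker of assembled complex I, was lower by -0.53 ± 0.0631 in DDE against control (adjusted p = 6.86e-05), with 3 DDE arrays because 1 spot was left out as an outlier. Ndufb9, also of the membrane arm, was lower by -0.38 ± 0.0511 in DDE against control and by -0.38 ± 0.0511 in PXDDE against DDE (adjusted p = 0.000102 and 0.000103), under all 6 scalings in both. Ndufb6, another membrane subunit, was lower by -0.40 ± 0.0682 and -0.42 ± 0.0682 in these comparisons (adjusted p = 0.000544 and 0.000419), of which the PXDDE value held under all 6 scalings.

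Other accessory genes were among the lowest in PXDDE against DDE. Ndufa4, first assigned to complex I and since found with complex IV, had levels of 6.24, 5.997, 5.94 and 5.996 in PXDDE, 6.58, 6.66, 6.72 and 6.60 in DDE and 7.03, 6.995, 6.86 and 6.66 in control. The PXDDE arrays lay below all others, while the lowest control array fell within the DDE range. It was lower by -0.60 ± 0.0878 in PXDDE against DDE (adjusted p = 0.000194) and by -0.25 ± 0.0878 in DDE against control (adjusted p = 0.0351). The second of these calls of Ndufa4 was lost without control replicate 1, 2 or 3 or DDE replicate 1, 2 or 4, with an adjusted p of up to 0.0978. Ndufa7 was lower by -0.57 ± 0.0538 in PXDDE against DDE (adjusted p = 6.38e-06), and Ndufa2, a small subunit with a thioredoxin-like fold, by -0.52 ± 0.0722 (adjusted p = 0.000123). The falls in DDE against control were -0.24 ± 0.0538 for Ndufa7 (adjusted p = 0.00309) and -0.25 ± 0.0722 for Ndufa2 (adjusted p = 0.0146), and neither held under all 6 scalings. For Ndufb11 the difference was -0.12 ± 0.0727 in DDE against control (adjusted p = 0.202) and -0.22 ± 0.0727 in PXDDE against DDE (adjusted p = 0.0249, positive under 3 other scalings), beside -0.14 and -0.25 for its near copy Gm6444. Without DDE replicate 2 or 3 or PXDDE replicate 2 or 3 the call of Ndufb11 was lost (adjusted p of up to 0.0706). Ndufa4l2, a form of Ndufa4 known to be induced by low oxygen, was dim and did not pass the threshold in any comparison (differences of -0.04, -0.02 and -0.07, adjusted p = 0.705, 0.826 and 0.495).

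Factors that build complex I but are not part of it were split. Of the 7, none was higher and 4 were lower in DDE against control, none higher and 4 lower in PXDDE against DDE, and 2 higher and 4 lower in PXDDE against control, with medians of -0.183, -0.291 and -0.621. Ndufaf5, which hydroxylates the core subunit Ndufs7 during assembly, had levels of -0.39, -0.43, -0.47 and -0.34 in PXDDE, -0.06, -0.11, -0.08 and -0.07 in DDE and 0.69, 0.64, 0.71 and 0.79 in control. The control arrays stood well above the rest: the difference was -0.79 ± 0.0449 in DDE against control (adjusted p = 1.2e-07) and -0.33 ± 0.0449 in PXDDE against DDE (adjusted p = 0.000106). The next brightest Ndufaf5 probe gave a smaller -0.32 in DDE against control. Ndufaf6 was lower in PXDDE against DDE by -0.44 ± 0.0569, Ndufaf2 by -0.33 ± 0.0529 and Ndufaf4 by -0.29 ± 0.0591 (adjusted p = 7.86e-05, 0.000362 and 0.00177), each under all 6 scalings. In PXDDE against control, Ndufaf1 and Ndufaf3 were higher by 0.13 ± 0.0481 and 0.16 ± 0.0503 (adjusted p = 0.0284 and 0.0136), but not under all 6 scalings, and Ndufaf1 lost its call without control replicate 4 or PXDDE replicate 1, 2 or 4 (adjusted p of up to 0.0797).

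The 4 genes of complex II, succinate dehydrogenase, did not move together: in each comparison 1 was higher, 1 lower and the other 2 were not called. Sdha, the flavoprotein that oxidises succinate, had levels of 5.23, 5.29, 5.16 and 5.38 in PXDDE, 5.09, 4.98, 4.99 and 4.95 in DDE and 4.76, 4.74, 4.72 and 4.57 in control. The 3 groups did not overlap. It was higher by 0.30 ± 0.0594 in DDE against control (1.23-fold, adjusted p = 0.0014) and by 0.26 ± 0.0594 in PXDDE against DDE (1.20-fold, adjusted p = 0.00336), under all 6 scalings in both. Sdhd, which anchors the enzyme in the membrane, had levels of 5.90, 5.76, 5.80 and 5.91 in PXDDE, 6.12, 6.26, 6.30 and 6.21 in DDE and 6.58, 6.59, 6.51 and 6.35 in control. It was lower where Sdha was higher, again without overlap. Sdhd differed by -0.29 ± 0.0651 and -0.38 ± 0.0651 (adjusted p = 0.00348 and 0.000592), and under all 6 scalings only in PXDDE against control (-0.66 ± 0.0651, adjusted p = 2.76e-06).

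The iron-sulphur subunit Sdhb had means of 7.61 ± 0.0276 in PXDDE, 7.55 ± 0.0296 in DDE and 7.59 ± 0.0553 in control (SD, n = 4 each). The other anchor, Sdhc, averaged 4.98 ± 0.106, 5.01 ± 0.0444 and 4.97 ± 0.0399 in the same order. By these probes neither passed the threshold in any comparison, with adjusted p between 0.254 and 0.754 for Sdhb and between 0.631 and 0.905 for Sdhc. The second Sdhb probe disagreed: in the fit over probes it was higher by 0.19 in PXDDE against DDE and by 0.33 in PXDDE against control (adjusted p = 0.0309 and 0.000784). Sdha had 4 probes. The 3 with the highest signal were higher in DDE against control by 0.30, 0.57 and 0.34, the last of these with an adjusted p of 0.0956, while the weakest, at a level of -3.79, was lower by -0.49 (adjusted p = 0.0171).

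**Figure D2:**
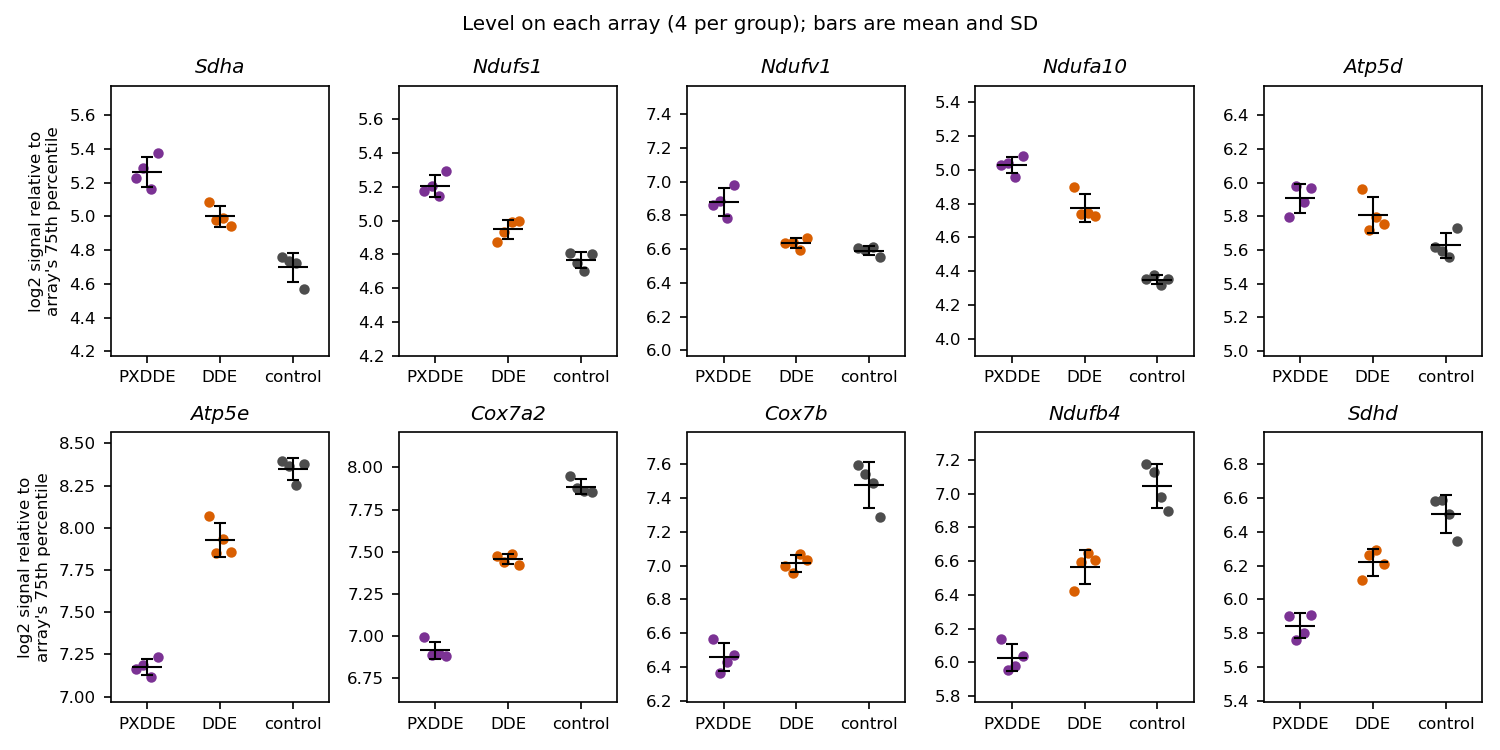
Log2 signal relative to the array's 75th percentile for 10 members on each array of the PXDDE, DDE and control groups (points, 4 per group), with the mean and SD as bars. The vertical axes have equal spans but different origins, and Sdha, Ndufs1 and Ndufa10 step down where Atp5e, Cox7a2, Cox7b, Ndufb4 and Sdhd step up between PXDDE, DDE and control.

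Complex III passes electrons on to cytochrome c. Its large core subunits Uqcrc1 and Uqcrc2 and the Rieske iron-sulphur protein Uqcrfs1 showed no call in DDE against control, with differences of 0.11, -0.11 and -0.14. In PXDDE against DDE, Uqcrfs1 was lower by -0.24 ± 0.0747 (adjusted p = 0.0177) under the 75th percentile, but it turned positive under quantile normalisation, the RMA-like scaling and the deposited values, and without PXDDE replicate 2 the call of Uqcrfs1 was lost (adjusted p = 0.0544). Uqcrc1 had levels of 5.70, 5.84, 5.89 and 5.74 in PXDDE, 5.78, 5.58, 5.66 and 5.55 in DDE and 5.54, 5.54, 5.53 and 5.52 in control. PXDDE arrays lay above all control arrays and overlapped those of DDE. The difference was 0.26 ± 0.0594 in PXDDE against control (adjusted p = 0.00199, all 6 scalings), and 0.15 ± 0.0594 in PXDDE against DDE (adjusted p = 0.0501).

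All 5 small subunits of complex III were lower in DDE against control and in PXDDE against DDE, with medians of -0.328 and -0.44. Relative to all genes these medians were below 0 under each scaling, at -0.304 to -0.167 and -0.4 to -0.161. Uqcrh, the acidic hinge protein at the cytochrome c docking site, had levels of 7.14, 7.14, 7.06 and 7.22 in PXDDE, 7.68, 7.60, 7.62 and 7.58 in DDE and 7.98, 7.96, 7.81 and 7.94 in control. It was lower by -0.30 ± 0.0503 in DDE against control (adjusted p = 0.000445) and by -0.48 ± 0.0503 in PXDDE against DDE (adjusted p = 1.49e-05, all 6 scalings). Uqcr10 was lower by -0.34 ± 0.0446 and -0.44 ± 0.0446 (adjusted p = 9.49e-05 and 1.21e-05), and Uqcrb, which lies next to the quinone site, by -0.33 ± 0.0706 and -0.46 ± 0.0706 (adjusted p = 0.00255 and 0.000248). With the mean of its probes, Uqcrb lost its call in DDE against control (adjusted p = 0.0769). That call was also lost under quantile normalisation, median centring, the RMA-like scaling and the deposited values (adjusted p = 0.0638 to 0.254). In PXDDE against DDE, Uqcrb lost its call under quantile normalisation, the RMA-like scaling and the deposited values (adjusted p = 0.122 to 0.138). Uqcrq, which lies near Uqcrb in the complex, was lower by -0.33 ± 0.0533 in DDE against control (adjusted p = 0.000377), and its fall of -0.29 ± 0.0533 in PXDDE against DDE (adjusted p = 0.000915) turned positive under 3 of the other scalings.

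Complex IV, cytochrome c oxidase, has its catalytic centre in subunits made from mitochondrial DNA, and all its nuclear subunits are regulatory or structural. Of the 10 forms found in most tissues, none was higher and 6 were lower in DDE against control, none higher and 9 lower in PXDDE against DDE, and none higher and 10 lower in PXDDE against control, with medians of -0.221, -0.297 and -0.473. Their medians relative to all genes were negative under each scaling, between -0.197 and -0.135, between -0.257 and -0.104 and between -0.415 and -0.235. Of these 10 forms, Cox8a was called lower in PXDDE against control (-0.167, adjusted p = 0.00564), but its direction depended on the scaling. It was called higher under quantile normalisation, median centring, the RMA-like scaling and the deposited values (0.21, 0.207, 0.215 and 0.192). The adjusted p of Cox8a in this comparison was at most 0.0179 under any alternative.

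The largest falls among these forms were in Cox7b, Cox7a2 and Cox6c, small membrane-spanning subunits. Cox7a2 had levels of 6.99, 6.89, 6.89 and 6.88 in PXDDE, 7.47, 7.44, 7.48 and 7.42 in DDE and 7.95, 7.88, 7.86 and 7.85 in control, in 3 separate bands. Its difference was -0.43 ± 0.0413 in DDE against control (adjusted p = 7.91e-06) and -0.54 ± 0.0413 in PXDDE against DDE (adjusted p = 1.3e-06), or 1.96-fold lower in PXDDE against control. Cox7b had levels of 6.56, 6.36, 6.43 and 6.47 in PXDDE, 6.998, 6.95, 7.07 and 7.03 in DDE and 7.60, 7.54, 7.49 and 7.29 in control, and was lower by -0.47 ± 0.0684 and -0.56 ± 0.0684 (adjusted p = 0.000192 and 5.15e-05). Both genes held under all 6 scalings in both comparisons. Cox6c was lower by -0.41 ± 0.0701 in DDE against control (adjusted p = 0.000531) and by -0.57 ± 0.0701 in PXDDE against DDE (adjusted p = 5.39e-05, all 6 scalings).

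Cox4i1, the largest nuclear subunit of complex IV, was lower by -0.25 ± 0.0687 and -0.34 ± 0.0687 (adjusted p = 0.0101 and 0.00163), and Cox5a by -0.19 ± 0.0397 and -0.14 ± 0.0397 (adjusted p = 0.00205 and 0.0109), in each case not under all 6 scalings. For Cox5a the sign depended on scaling, turning positive under median centring in DDE against control and under 4 scalings in PXDDE against DDE. Cox6a1 and Cox8a, the common counterparts of the muscle forms, differed in DDE against control by -0.09 ± 0.038 and -0.07 ± 0.0448 (adjusted p = 0.0608 and 0.196).

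In both comparisons with control, the largest changes of any members were in the muscle forms of complex IV subunits. Cox6a2 had levels of 3.43, 3.36, 3.32 and 3.34 in PXDDE, 3.83, 3.75, 3.80 and 3.76 in DDE and 5.25, 5.24, 5.25 and 5.30 in control. Cox7a1 had levels of 3.43, 3.41, 3.37 and 3.51 in PXDDE, 3.80, 3.67, 3.73 and 3.60 in DDE and 5.19, 5.23, 5.17 and 5.16 in control. Cox8b had levels of 2.80, 2.72, 2.66 and 2.88 in PXDDE, 3.14, 2.94, 3.01 and 3.03 in DDE and 4.54, 4.58, 4.57 and 4.66 in control. In each gene the control arrays lay far above both treated groups, and the PXDDE arrays lay below the DDE arrays. In DDE against control Cox6a2 was 2.78-fold lower (log2 -1.48 ± 0.0394, adjusted p = 2.09e-10), Cox7a1 2.81-fold lower (-1.49 ± 0.0506, adjusted p = 1.39e-09) and Cox8b 2.95-fold lower (-1.56 ± 0.0583, adjusted p = 3.01e-09). Against DDE, PXDDE had lower Cox6a2, Cox7a1 and Cox8b, by -0.42 ± 0.0394, -0.27 ± 0.0506 and -0.26 ± 0.0583 (adjusted p = 6.38e-06, 0.00114 and 0.0031), of which Cox6a2 held under all 6 scalings.

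Markers of skeletal muscle moved with these forms. All 14 were lower in DDE against control, with a median of -1.36, and 12 of the 14 were lower in PXDDE against DDE, with a median of -0.415. Their summed linear level was 158 to 171 in PXDDE, 208 to 227 in DDE and 553 to 574 in control, and all 14 were bright enough to be tested. Acta1, the actin of skeletal muscle fibres, was 2.17-fold lower in DDE against control, and Ckm, muscle creatine kinase, 2.33-fold lower. Of 7 markers of heart and slow muscle, 6 were lower in DDE against control, and their sums were 7.49 to 7.93 in PXDDE, 9.05 to 9.57 in DDE and 22.7 to 24.7 in control. The part of muscle RNA in the change of Cox6a2, Cox7a1 and Cox8b was not tested. Without these and the other isoforms, the pseudogene, Atp5s and Atp5sl, 47 of 81 members were lower in DDE against control, 56 in PXDDE against DDE and 64 in PXDDE against control, with medians of -0.218, -0.252 and -0.496.

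**Figure D3:**
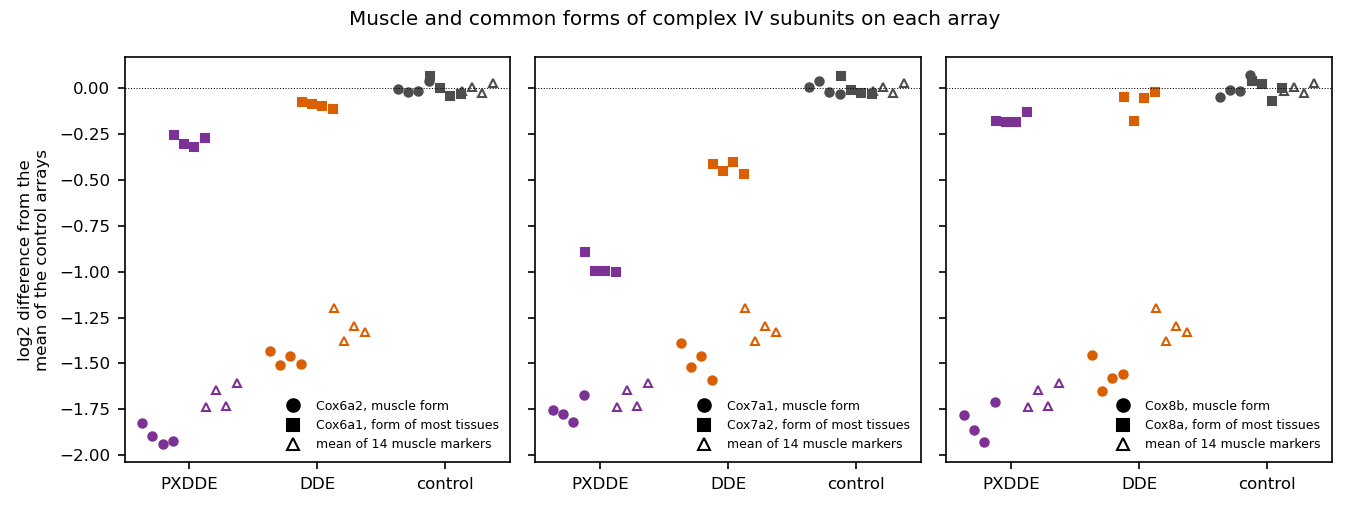
Log2 difference from the mean of the control arrays for a muscle form (circles), the form of most tissues (squares) and the mean of 14 skeletal muscle markers (triangles) on each array, with PXDDE, DDE and control from left to right. The muscle forms and the muscle markers lie together below -1 in both treated groups, while Cox6a1 and Cox8a lie much closer to 0 and Cox7a2 lies between.

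The remaining isoforms were dim. Cox6b2, known from testis, was lower by -0.59 ± 0.135 in DDE against control (adjusted p = 0.00363), and in PXDDE against DDE its difference was 0.07 ± 0.135 (adjusted p = 0.698). Cox4i2, a form known from lung, did not pass the threshold in DDE against control or PXDDE against DDE (-0.13 ± 0.0662 and -0.04 ± 0.0662, adjusted p = 0.126 and 0.625), and its call in PXDDE against control (-0.17 ± 0.0662, adjusted p = 0.0359) changed sign under 3 scalings and was lost without control replicate 1 or 2 or PXDDE replicate 1, 2 or 4 (adjusted p of up to 0.111). Cox7b2 and Cox8c, also known from testis, stayed near background on all 12 arrays.

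Complex V consists of the F1 part, which makes ATP in the matrix, and the Fo part with the stalks that hold and turn it. By their brightest probes, the 5 genes of F1 had medians close to 0, at -0.00628 in DDE against control, 0.0139 in PXDDE against DDE and 0.00765 in PXDDE against control, but single genes ranged from -0.421 to 0.181, from -0.753 to 0.113 and from -1.17 to 0.28. Atp5b, the catalytic beta subunit, averaged 8.22 ± 0.0294 in PXDDE, 8.20 ± 0.0379 in DDE and 8.21 ± 0.0594 in control (SD, n = 4 each), and the adjusted p was 0.913, 0.807 and 0.879 in the 3 comparisons. The other 2 probes of Atp5b disagreed with this one, the brightest. In the fit over probes they were higher by 0.21 and 0.29 in DDE against control (adjusted p = 0.00742 and 0.0158) and by 0.31 and 0.49 in PXDDE against control (adjusted p = 0.000316 and 0.000366). The difference of the brightest Atp5b probe also turned positive in DDE against control under 3 scalings. Its partner alpha, Atp5a1, differed by 0.07 ± 0.0462 and 0.11 ± 0.0462 in the first 2 comparisons (adjusted p = 0.21 and 0.0615) and was higher by 0.19 ± 0.0462 in PXDDE against control (adjusted p = 0.0035, all 6 scalings). A second probe of Atp5a1 was higher in all 3 comparisons, by 0.30, 0.25 and 0.55 (adjusted p = 0.002, 0.00523 and 8.26e-06 in the fit over probes).

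The small subunits of the central stalk of F1 moved apart. Atp5d, the delta subunit, had levels of 5.79, 5.98, 5.89 and 5.97 in PXDDE, 5.96, 5.72, 5.80 and 5.75 in DDE and 5.62, 5.60, 5.56 and 5.73 in control. The highest control array lay just above the lowest DDE array, and the difference was 0.18 ± 0.0654 in DDE against control (adjusted p = 0.038, all 6 scalings) and 0.10 ± 0.0654 in PXDDE against DDE (adjusted p = 0.228). The call of Atp5d in DDE against control was lost under 8 of 26 alternatives, among them without control replicate 1, 2 or 3 or DDE replicate 1 or 3, where the difference was 0.129 to 0.184 and the adjusted p reached 0.0984. Atp5e, the epsilon subunit and the smallest protein of F1, had levels of 7.16, 7.19, 7.12 and 7.23 in PXDDE, 8.07, 7.85, 7.93 and 7.86 in DDE and 8.39, 8.37, 8.25 and 8.38 in control. It was 1.34-fold lower in DDE against control (log2 -0.42 ± 0.0565, adjusted p = 0.000101) and 1.69-fold lower in PXDDE against DDE (-0.75 ± 0.0565, adjusted p = 1.12e-06), which was the largest change of any member in the must comparison, and both held under all 6 scalings.

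Among 10 genes of Fo and the stalks, none was higher in any comparison, and 6, 8 and 10 were lower in DDE against control, PXDDE against DDE and PXDDE against control, with medians of -0.216, -0.315 and -0.553. Atp5l, subunit g of the membrane part, had levels of 7.73, 7.60, 7.60 and 7.67 in PXDDE, 8.15, 8.08, 8.14 and 8.17 in DDE and 8.59, 8.58, 8.49 and 8.49 in control. It was lower by -0.40 ± 0.0451 and -0.49 ± 0.0451 (adjusted p = 2.71e-05 and 5.98e-06), under all 6 scalings in both. Atp5k, subunit e, was lower by -0.43 ± 0.0517 and -0.34 ± 0.0517 (adjusted p = 4.25e-05 and 0.000223), and Atp5o, which holds F1 to the outer stalk, by -0.35 ± 0.0396 and -0.30 ± 0.0396 (adjusted p = 2.68e-05 and 7.89e-05), both under all 6 scalings in DDE against control. Atp5sl, named after an ATP synthase gene but known as a complex I assembly factor, differed by 0.11 ± 0.0597 in DDE against control (adjusted p = 0.141), and was higher by 0.19 ± 0.0597 in PXDDE against control (adjusted p = 0.0122). Another Atp5sl probe was higher by 0.34 in DDE against control (adjusted p = 0.0113 in the fit over probes).

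Since a common shift from scaling cancels within an array, the mean changes of different roles of a complex were also set against each other. In complex I the 7 core genes changed by 0.192 ± 0.0222 more than the 30 accessory genes in DDE against control, by 0.288 ± 0.027 more in PXDDE against DDE and by 0.48 ± 0.0306 more in PXDDE against control (log2, SE over arrays). Over the 6 scalings these differences ran from 0.169 to 0.192, from 0.286 to 0.303 and from 0.464 to 0.48, a much narrower range than that of the medians. In complex III, Uqcrc1, Uqcrc2 and Uqcrfs1 exceeded the 5 small subunits by 0.258 ± 0.0315, 0.281 ± 0.0328 and 0.54 ± 0.0389, with ranges of 0.18 to 0.259, 0.26 to 0.303 and 0.465 to 0.541. In complex V the F1 genes exceeded those of Fo and the stalks by 0.159 ± 0.0297, 0.139 ± 0.0311 and 0.298 ± 0.0395, although Atp5e, within F1, changed more than any Fo gene in PXDDE against DDE.

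**Figure D4:**
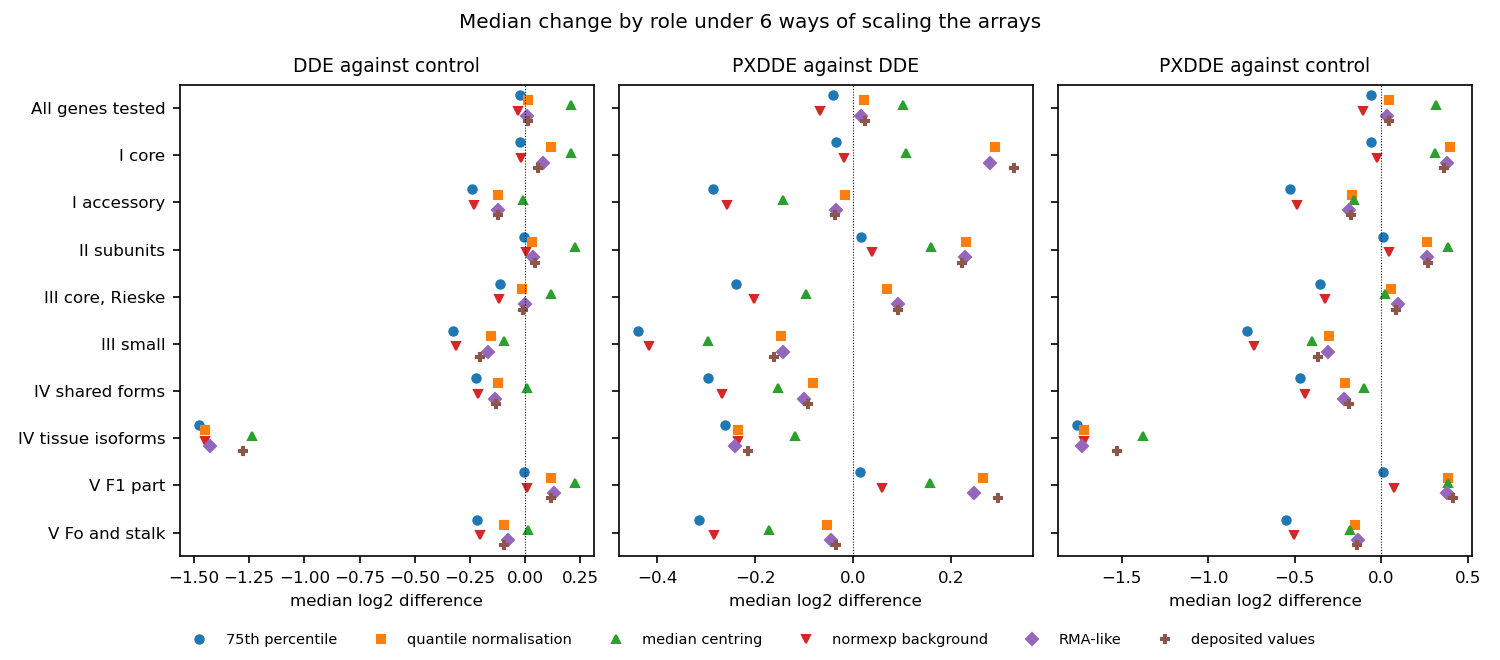
Median log2 difference of each role in the 3 comparisons under 6 ways of scaling the arrays (1 symbol each), with all tested genes in the top row. The horizontal axes differ between panels. Within a panel the roles shift together with the scaling, and the core of complex I and the F1 part of complex V stay to the right of the accessory and Fo genes under every scaling.

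Among the members, the signal level and the change were weakly related, with a Spearman coefficient across 90 genes of -0.181 in DDE against control, -0.346 in PXDDE against DDE and -0.232 in PXDDE against control, against 0.239, 0.00407 and 0.155 across all genes. Guanine and cytosine content of the probe, with a median of 45% for the members and 43.3% for all genes, gave coefficients of -0.105, -0.0279 and -0.0776 across members. These are descriptions across genes that share the same arrays.

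Different probes of a gene mostly gave the same sign, but often not the same call. Of 28 members with several probes above background, all probes had the same sign in 24 genes in DDE against control, in 24 in PXDDE against DDE and in 26 in PXDDE against control. The change of the brightest probe and of the next one differed by a median of 0.083, 0.0828 and 0.13, and across the 28 genes they were correlated at 0.859, 0.941 and 0.927. In the fit over probes, 15, 10 and 6 of the 28 genes had a probe whose call differed from that of the brightest one, and in 7, 3 and 3 genes another probe was called where the brightest was not. Sdha alone among the 28 had probes called in opposite directions, in each comparison. Sdha, Ndufa10 and Atp5l were among the genes whose brightest pair had the same sign throughout.

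**Figure D5:**
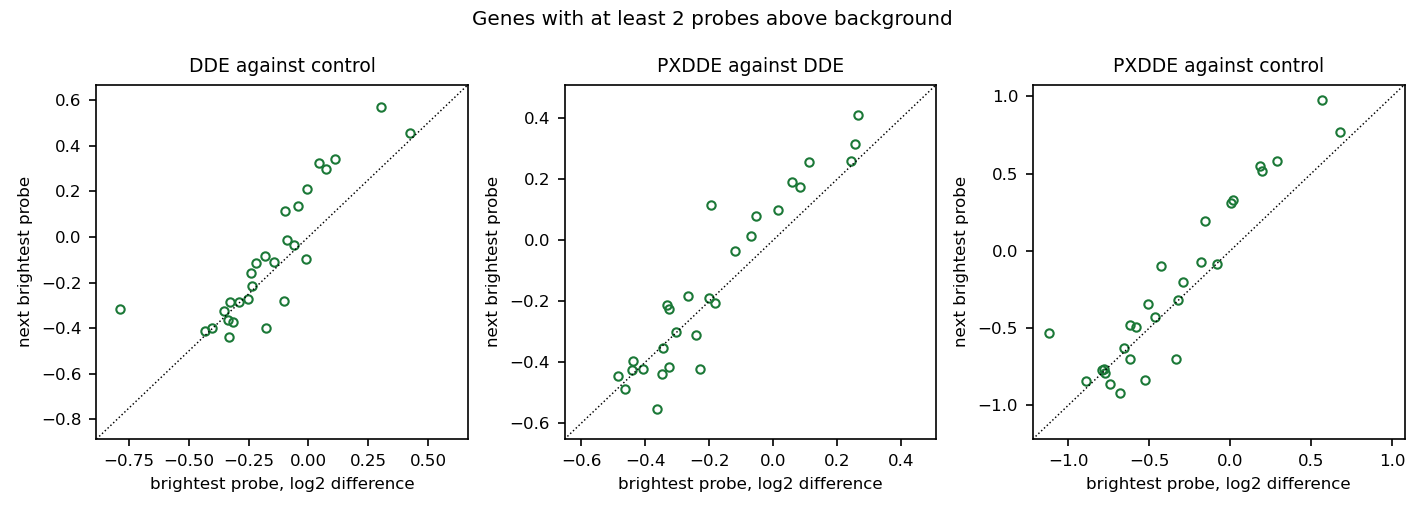
Log2 difference given by the brightest probe of a gene (horizontal) and by its next brightest probe (vertical) for the 28 members with several probes above background, in the 3 comparisons, with the line of equal values. Most genes lie near the line, and Ndufaf5 is the member whose brightest probe fell most in both comparisons with control.

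Differences were also taken within slides, from the same arrays on which the calls were made. For members whose groups did not overlap, any pair of arrays gives the called sign. The agreement in sign below was therefore largely given in advance and is no separate support. The 3 slides that held both DDE and control gave members' medians of -0.224, -0.193 and -0.288, and all 55 called members had the same sign on each. The slides that held PXDDE and DDE gave -0.235, -0.318 and -0.185, and 63, 64 and 64 of the 64 called members had the same sign; Ndufb8 had no value on the first of these slides. In PXDDE against control they gave -0.446, -0.537 and -0.38, with all 81 called members in the same direction. On single slides Atp5e changed by -0.437, -0.4 and -0.539 in DDE against control and by -0.835, -0.815 and -0.692 in PXDDE against DDE, while Sdha changed by 0.256, 0.254 and 0.184 and by 0.287, 0.171 and 0.253.

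The subunits made from mitochondrial DNA, which are not members by name, were lower as well. Of 10 tested, none was higher and 6 were lower in DDE against control, none was higher and 7 were lower in PXDDE against DDE, and all 10 were lower in PXDDE against control, with medians of -0.372, -0.455 and -0.838. Among all genes 26.3%, 29.7% and 39.3% were lower. Under all 6 scalings the shares of all genes were 10.5%, 15.7% and 19.6%, and 1, 1 and 6 of these subunits were lower. Relative to all genes their medians were negative under each scaling, at -0.348 to -0.272, -0.414 to -0.251 and -0.78 to -0.503. ND1, a membrane subunit of complex I, averaged 5.54 in PXDDE, 5.89 in DDE and 6.33 in control and was lower by -0.45 ± 0.0527 and -0.35 ± 0.0527 (adjusted p = 3.89e-05 and 0.000245). ND4L, another such subunit, was lower by -0.36 ± 0.0807 and -0.53 ± 0.0807 (adjusted p = 0.00308 and 0.000244). The call of ND1 in PXDDE against DDE was lost under quantile normalisation, the RMA-like scaling and the deposited values (adjusted p = 0.426 to 0.729). Both calls of ND4L were lost under the same scalings (adjusted p = 0.052 to 0.0747). In DDE against control ND4L also lost its call under median centring (adjusted p = 0.149).

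Enzymes of the citric acid cycle and of pyruvate entry, which supply NADH and succinate to complexes I and II, ran the other way. Of 18, 8 were higher and 3 lower in DDE against control, 7 higher and 1 lower in PXDDE against DDE, and 14 higher and 2 lower in PXDDE against control. Among all genes 24%, 20.2% and 31.6% were higher, and 26.3%, 29.7% and 39.3% lower. The medians of these enzymes were 0.145, 0.143 and 0.265, and they were positive relative to all genes under each scaling, at 0.117 to 0.188, 0.183 to 0.287 and 0.323 to 0.431. Cs, citrate synthase, averaged 6.02 in PXDDE, 5.53 in DDE and 5.34 in control, and Ogdh, of the oxoglutarate dehydrogenase complex, 5.52, 5.23 and 4.87. Cs was higher by 0.18 in DDE against control and by 0.49 in PXDDE against DDE (adjusted p = 0.00529 and 5.25e-06), and Ogdh by 0.36 and 0.29 (adjusted p = 5.89e-05 and 0.000327). Dlat, of the pyruvate dehydrogenase complex, was 1.82-fold higher in PXDDE against DDE (log2 0.86, adjusted p = 2.45e-08). In DDE against control, however, Dlat was called lower, with a positive sign under median centring (0.104). That call of Dlat was lost under 4 of 26 alternatives (adjusted p of up to 0.116).

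Regulators of mitochondrial genes were mixed, with 2 of 19 higher and 5 lower in DDE against control, 4 higher and 9 lower in PXDDE against DDE, and 5 higher and 9 lower in PXDDE against control. Among all genes 24%, 20.2% and 31.6% were higher, and 26.3%, 29.7% and 39.3% lower. In DDE against control the share of regulators that were lower was thus near that of all genes. Ppargc1a, a coactivator that drives genes of oxidative metabolism, averaged -0.62 ± 0.225 in PXDDE, -0.23 ± 0.116 in DDE and 0.12 ± 0.147 in control (SD, n = 4 each). It was lower by -0.36 ± 0.111 and -0.39 ± 0.111 (adjusted p = 0.0193 and 0.0134), and under all 6 scalings in PXDDE against control (-0.74 ± 0.111, adjusted p = 9.08e-05). Without control replicate 1 or DDE replicate 3 the call of Ppargc1a in DDE against control was lost (adjusted p = 0.0572 and 0.0531). Esrra, a nuclear receptor that binds many of these promoters, was lower by -0.13 ± 0.0384 and -0.14 ± 0.0384 (adjusted p = 0.0155 and 0.00964), with a positive sign under median centring. The call of Esrra in PXDDE against DDE was also lost under the quantile, normexp and RMA-like scalings and in the deposited values (adjusted p = 0.0635 to 0.508). Tfam, which packages mitochondrial DNA, differed by -0.07 ± 0.065 in DDE against control (adjusted p = 0.363) and was lower by -0.37 ± 0.065 in PXDDE against DDE (adjusted p = 0.000659, all 6 scalings), and Nrf1 did not pass the threshold in any comparison (adjusted p = 0.704, 0.687 and 0.976). Polrmt, the mitochondrial RNA polymerase, was higher by 0.24 and 0.29 (adjusted p = 0.00141 and 0.000454), and Mterf1a, a mitochondrial transcription terminator, lower by -0.46 and -0.59 (adjusted p = 0.000162 and 2.66e-05). Pprc1, related to Ppargc1a, was higher by 0.43 in PXDDE against DDE (adjusted p = 0.000254), and Sirt3, a mitochondrial deacetylase, was lower by -0.33 and -0.23 (adjusted p = 7e-04 and 0.00724), the second with a positive sign under quantile normalisation.

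Assembly factors and electron carriers outside the name rule had 8 of 40 genes higher and 8 lower in DDE against control, 2 higher and 21 lower in PXDDE against DDE, and 9 higher and 25 lower in PXDDE against control. Among all genes 24%, 20.2% and 31.6% were higher, and 26.3%, 29.7% and 39.3% lower. In DDE against control both counts of this list were below the shares of all genes. Usmg5, a small subunit of ATP synthase under an older name, was lower by -0.39 and -0.66 (adjusted p = 4.06e-05 and 6.79e-07), and Cox14, a complex IV assembly factor, by -0.44 and -0.48 (adjusted p = 0.000103 and 4.92e-05). Coa4, also of complex IV assembly, was lower by -0.52 in PXDDE against DDE (adjusted p = 8.97e-06). Of 77 proteins of the mitochondrial ribosome, 10 were higher and 26 lower in DDE against control, 3 higher and 53 lower in PXDDE against DDE, and 13 higher and 55 lower in PXDDE against control, with medians of -0.0597, -0.245 and -0.332. Mrpl33 was lower by -0.45 and -0.58 (adjusted p = 8.19e-06 and 1.03e-06), Mrpl20 by -0.32 and -0.42 (adjusted p = 7.95e-05 and 1.08e-05), Mrpl42 by -0.25 and -0.41 (adjusted p = 0.000221 and 4.81e-06), and Mrpl17 by -0.40 in PXDDE against DDE (adjusted p = 2.06e-06). Under median centring Mrpl20 and Mrpl42 lost their calls in DDE against control (adjusted p = 0.144 and 0.796). The call of Mrpl20 in PXDDE against DDE was lost under the RMA-like scaling and the deposited values (adjusted p = 0.0593 and 0.0639).

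Among 13 uncoupling proteins and carriers, 4 were higher and 5 lower in DDE against control, 3 higher and 1 lower in PXDDE against DDE, and 4 higher and 4 lower in PXDDE against control. The shares of all genes were 24%, 20.2% and 31.6% higher, and 26.3%, 29.7% and 39.3% lower. Slc25a4, the ATP and ADP exchanger of heart and muscle, was 2.51-fold lower in DDE against control (log2 -1.33, adjusted p = 1.1e-08) and lower by -0.39 in PXDDE against DDE (adjusted p = 0.000202), beside the fall in skeletal muscle markers given above. Ucp1, the uncoupling protein of brown fat, averaged 0.34 in PXDDE, -0.68 in DDE and 1.30 in control, so that it was lower by -1.99 in DDE against control (adjusted p = 6.27e-10) and higher by 1.02 in PXDDE against DDE (adjusted p = 1.95e-07). The summed level of 3 brown adipocyte markers, Ucp1 included, was 7.52 to 8.03 in PXDDE, 8.79 to 9.6 in DDE and 11.8 to 12.3 in control, while Zic1 and Dio2 were not well above background. Over 6 adipocyte markers the sum was 16.5 to 19.4 in PXDDE, 14.6 to 15.6 in DDE and 40.1 to 44.3 in control, and the part of fat in the values of Ucp1 was not tested.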

How the data were processed

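Liver total RNA of 12 samples was labelled with Cy3 and read on 1-colour Agilent arrays, per the labels. Per the file headers, the deposited scanner files give an intensity per spot, the processed signal, already background-corrected by spatial detrending and detrended within the array. RMA, limma and Agilent Feature Extraction 11.5.1.1 are named in the submitters' processing notes. The authors' deposited values are on a log2 scale, found by setting them against the scanner values (r = 0.9949 to 0.9964 per array); column medians were 5.3243 to 5.3479, and the exact normalisation and centring stay unknown here. They served as an alternative.

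Signals were taken as log2 minus the log2 75th percentile of each array. Control spots (3671 of 62976) and outlier spots (102 to 177 per array) were left out, probes printed several times were averaged, and 27098 of 56605 probes were kept, each well above background on every array of 1 group or more. The brightest kept probe stood for a gene. Limma 3.58.1 (R 4.3.3) fitted 1 model over 12 arrays (9 residual degrees of freedom) with eBayes and Benjamini-Hochberg adjustment over 18678 genes; the fit was tested on simulated data. The alternatives comprised 5 other scalings (quantile, median centring, normexp with an offset of 50, RMA-like and deposited values), probe filters, fits with slide or replicate number as a block and leaving out each array. Replicate numbers did not pair the arrays.

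The members and lists were chosen with earlier results of these data known. Genes named are, per comparison and class, up to 2 called members with the largest rise and 2 with the largest fall, a fixed set of core subunits and isoforms, 4 regulators and up to 2 called genes per list; Cox7a2, Cox6a1, Cox8a, Ndufb9, Ndufb6, Ndufa2, Ndufb11, Ndufv2, Atp5o, Atp5a1, Ckm and Acta1 were added after their values were seen. Some genes that this rule names are not reported here. The number of arrays, 4 per group, limits the precision. Whether the probes match the Mus spretus transcripts was not analysed here. Gene names are those of the array.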

Additional observations from a re-analysis of the deposited data

Results flagged for a closer look

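Among 222 groups of 4 arrays (74 genes named, 3 groups each), 10 held an array that stood apart from the other 3 by Dixon's criterion, which chance gives in about 1 of 20 groups. Among the members, Ndufa10 on DDE replicate 1 was 4.898, against 4.726 to 4.742 on the other DDE arrays, and Cox7a2 on PXDDE replicate 1 was 6.993, against 6.884 to 6.891. Ndufaf4 on PXDDE replicate 4 was 1.926, against 2.053 to 2.076, Sdhc on DDE replicate 3 was 5.072, against 4.977 to 4.988, and Cox8a on PXDDE replicate 4 was 8.122, against 8.07 to 8.073. Among other genes, Cs on DDE replicate 1 was 5.445, against 5.551 to 5.563. Mrpl17 was 4.057 on DDE replicate 1, against 4.033 to 4.035, and 4.023 on control replicate 2, against 3.999 to 4.001. Pprc1 on PXDDE replicate 3 was 0.2243, against 0.2487 to 0.251, and Ucp1 on control replicate 3 was 1.25, against 1.314 to 1.325.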

How the results depend on the processing

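Of the choices tried, the scaling of the arrays moved the results most. In DDE against control, higher and lower members numbered 10 and 38 under quantile normalisation, 24 and 14 under median centring, 8 and 39 under the RMA-like scaling and 7 and 36 in the deposited values, with medians of -0.107, 0.0188, -0.0987 and -0.0983; averaging a gene's probes gave 8 higher. In PXDDE against DDE the counts were 21 and 21, 12 and 34, 20 and 24, and 19 and 23, with medians of -0.0155, -0.104, -0.0327 and -0.0272; array weights gave 7 higher. In PXDDE against control they were 21 and 44, 25 and 39, 20 and 45, and 20 and 45, with medians of -0.128, -0.106, -0.111 and -0.135. The shares of all genes called under each of these scalings are not given, so these counts do not set the members against all genes. Relative to all genes the members' median was negative under each scaling, at -0.188 to -0.109 in DDE against control. It was -0.207 to -0.0377 in PXDDE against DDE and -0.423 to -0.144 in PXDDE against control. Members lower under all 6 scalings numbered 13, 17 and 35. Leaving out each array in turn gave 3 to 5 higher and 46 to 57 lower members in DDE against control (medians -0.22 to -0.196), 4 to 6 and 56 to 61 in PXDDE against DDE (-0.275 to -0.232) and 9 to 10 and 67 to 71 in PXDDE against control (-0.499 to -0.463). Replicate numbers did not pair the arrays (correlations of -0.369 to 0.132); with the replicate block 3 and 49, 4 and 60, and 10 and 69 members were higher and lower, and with slide as a block 4 and 55, 4 and 58, and 9 and 67. Slide as a block ended the calls of Esrra and Dlat in DDE against control (adjusted p = 0.0502 and 0.061). It also ended those of Ndufb11 in PXDDE against DDE (0.0501) and of Cox4i2 and Ndufaf1 in PXDDE against control (0.0857 and 0.0727).

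Signs turned in single genes. In DDE against control Atp5b gave 0.118 (quantile), 0.225 (median centring), 0.132 (RMA-like) and 0.166 (mean of probes), and median centring gave 0.04 for Cox5a, 0.19 for Ndufa4l2, 0.048 for Ndufaf6, 0.188 for Sdhb, 0.2 for Coa4, 0.104 for Dlat, 0.102 for Esrra, 0.138 for Cox6a1 and 0.158 for Cox8a. In PXDDE against DDE, under quantile, RMA-like and deposited values in turn, Cox5a gave 0.122, 0.104 and 0.124 (and 8.65e-05 under median centring), Uqcrfs1 0.0694, 0.0928 and 0.0929, Uqcrq 0.00486, 0.0287 and 0.0398, Cox6a1 0.0179, 0.132 and 0.107, Cox8a 0.175, 0.149 and 0.152, and Ndufb11 0.0504, 0.0781 and 0.0659; Sirt3 gave 0.0245 (quantile) and Esrra 0.00147 (median centring). In PXDDE against control, Cox4i2 gave 0.00052 (quantile), 0.203 (median centring) and 0.00706 (RMA-like), and under quantile, median centring, RMA-like and deposited values in turn Cox5a gave 0.115, 0.0401, 0.043 and 0.0515, Cox8a 0.21, 0.207, 0.215 and 0.192, and Ndufb11 0.0444, 0.0352, 0.0859 and 0.0481. Uqcrfs1 gave 0.0571 (quantile), 0.0932 (RMA-like) and 0.0818 (deposited), and Cox6a1 0.087 (median centring), 0.141 (RMA-like) and 0.128 (deposited). Median centring gave 0.309 for Ndufa4l2, 0.103 for Esrra, 0.00802 for Mrpl17 and 0.373 for Nrf1. In PXDDE against control the positive values of Cox8a were themselves calls (adjusted p of at most 0.0179), so that its call changed direction. The cause of these turns in sign was not tested.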
